A study of Bubalus bubalis with 3 samples.

Results

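The miR-23, miR-24 and miR-27 microRNAs (miRNAs) come from 2 paralogous gene clusters, and their levels were measured in fat of 6-month-old swamp buffalo of Chinese stock (Bubalus bubalis). The members were taken by name from the table of 622 listed miRNA names. Of 8 names sought, 7 were listed and are described here: bta-miR-23a, bta-miR-23b-3p, bta-miR-24, bta-miR-24-3p, bta-miR-27a-3p, bta-miR-27a-5p and bta-miR-27b. The prefix bta marks a bovine miRNA name and is left out below. The eighth, bta-miR-23b-5p, was not analysed here. The series held 1 group of 3 small RNA libraries, without treatment, genotype or control group, named library 1, 2 and 3 after their titles. The sources used here do not give the fat depot, the sex of the animals or whether each sample came from its own animal. The SDs below therefore describe how these samples scatter, and that scatter may be technical. The p-values below set mean differences against that scatter, some of them with a spread partly pooled over many pairs.

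A miRNA is a short RNA that, loaded into an Argonaute protein, lowers the stability and translation of messenger RNAs that match its seed, the stretch near its 5′ end. In mammals one cluster encodes miR-23a, miR-27a and a copy of miR-24 (cluster a below), and the other encodes miR-23b, miR-27b and a further copy of miR-24 (cluster b). Each cluster is transcribed as 1 primary transcript from which the hairpins are cut. The mature miR-24-3p of both clusters has the same sequence, while miR-23a and miR-23b-3p, and likewise miR-27a-3p and miR-27b, are nearly identical and share their seed. miR-27 is known in human and mouse fat cells as a brake on differentiation that acts on PPARG, the master transcription factor of adipocytes, and in mouse on Prdm16, a regulator of brown and beige fat. In mouse endothelium both clusters promote the growth of vessels. Their hairpins and mature sequences were not held in the files used, so none is shown.

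Values are the authors' TPM, in which the reads of a name are scaled so that all listed names reach the same total in each library. The smallest steps in the values put the reads counted over all listed names at 6870000 in library 1, 6770000 in library 2 and 5480000 in library 3. Other reads of a library do not enter these numbers. Markers of striated muscle summed to between 9.9 and 36.2 TPM, those of epithelium to between 7.1 and 16.1 TPM, and the hepatocyte miRNA miR-122 to at most 0.6 TPM, with 0 of these 14 names at 0 in every library. Markers of endothelium (miR-126 arms, 13223 to 25474 TPM) and fibroblast stroma (1643 to 4197 TPM) were higher. So were those of red blood cells (2558 to 6182 TPM) and white blood cells (190 to 914 TPM). The vessel wall list (miR-143 and miR-145) summed to between 154120 and 255700 TPM, nearly all of it miR-143. Which cells that miR-143 came from was not tested. No list of adipocyte miRNAs was used, so the tissue rests on its label. In such bulk tissue, fewer cells of a type and less RNA per cell cannot be told apart.

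miR-27b carried most of the signal of the 2 clusters. It had 30289, 15039 and 21758 TPM in libraries 1, 2 and 3, a mean of 22362 ± 7643 TPM (SD, n = 3). It was the 4th most abundant of all names in library 1 and the 8th in libraries 2 and 3. Among the 7 members it held 86.2%, 85.6% and 87.3% of their summed TPM, or 86.4% ± 0.906, so its part of the whole hardly moved while its level differed 2.01-fold between libraries 1 and 2. All 7 members together made up 3.52%, 1.76% and 2.49% of TPM, and the 6 others without miR-27b held 0.487%, 0.254% and 0.315%.

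**Figure D1:**
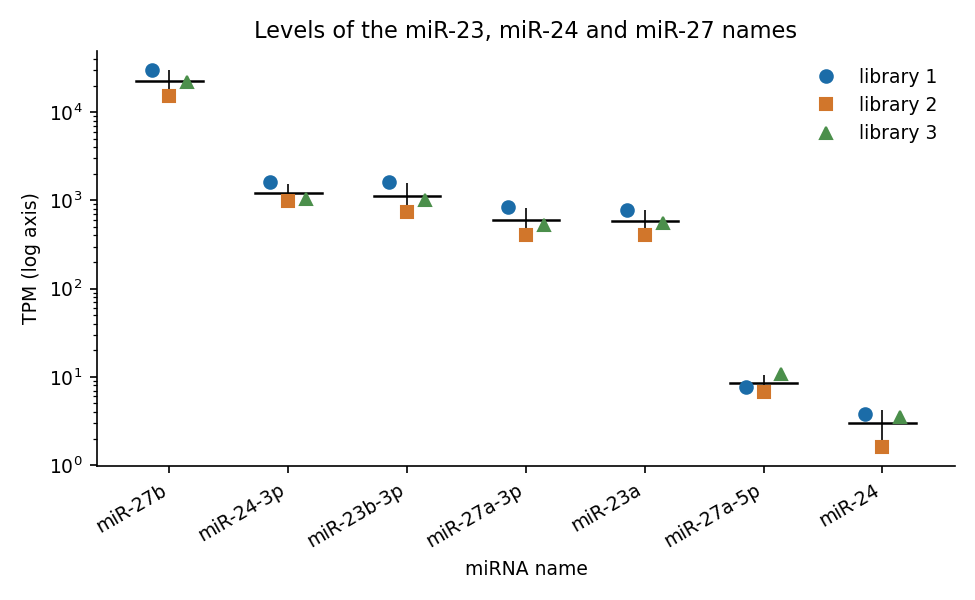
TPM of each member on a log axis, with 1 point per library, a horizontal bar at the mean and a vertical bar for ± 1 SD (n = 3). miR-27b lies between 15039 and 30289 TPM, 4 names between 403 and 1624 TPM, and miR-27a-5p and miR-24 at or below 10.9 TPM.

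miR-27a-3p, the paralogue of miR-27b with the same seed, was far lower. It had 841, 404 and 532 TPM in the 3 libraries, a mean of 592 ± 224 TPM (SD, n = 3). In every library its level lay below the lowest miR-27b level. miR-27b was 36.0, 37.2 and 40.9 times as abundant within the same library, which puts 97.4% ± 0.163 of the reads of these 2 names in miR-27b.

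The miR-23 names were closer to each other. miR-23b-3p had 1624, 744 and 1018 TPM, a mean of 1129 ± 450 TPM (SD, n = 3). miR-23a had 786, 403 and 549 TPM, a mean of 580 ± 193 TPM. The 2 names overlapped across libraries, since miR-23a in library 1 exceeded miR-23b-3p in library 2. Within each library miR-23b-3p was the higher, by 2.07, 1.85 and 1.85 times.

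miR-24-3p, which in human cells is known to act on cell-cycle genes such as E2F2 and MYC, had 1603, 979 and 1042 TPM, a mean of 1208 ± 344 TPM (SD, n = 3). Because both clusters encode the same mature miR-24-3p, its reads cannot be divided between them. The table also held a row named miR-24 without an arm, at 3.8, 1.6 and 3.5 TPM, or about 26, 11 and 19 reads. The sources used here do not say which arm or hairpin that name stands for, and it held 0.245% ± 0.0862 of the reads of both miR-24 names.

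Ordered by mean, the members ran from miR-27b through miR-24-3p, miR-23b-3p, miR-27a-3p, miR-23a and miR-27a-5p to miR-24. The neighbours miR-24-3p and miR-23b-3p were not separated, with a difference of 0.14 ± 0.23 on the log2(TPM + 1) scale (SD, n = 3) and miR-24-3p higher in 2 of 3 libraries. Nor were miR-27a-3p and miR-23a, with 0.02 ± 0.07 and miR-27a-3p higher in 2 of 3. The other 4 neighbouring pairs kept their order in 3 of 3 libraries. Sign flips over 3 libraries give an exact two-sided p of at least 0.25, so the order is a description. The median log2(TPM + 1) of the 7 members was 9.72, 8.66 and 9.10 in the 3 libraries, beside 7.74, 6.53 and 7.29 for the 166 names whose mean reached 10 TPM, called tested names below.

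Whether the paralogues of the 2 clusters differed was asked within each library, beside the other pairs of bovine names that share a number and carry letters a and b. The b member was higher in both pairs. The difference of log2(TPM + 1), a minus b, was -5.17, -5.21 and -5.35 for miR-27, a mean of -5.25 ± 0.10 (SD, n = 3; adjusted p = 0.000185 in limma over 28 pairs). For miR-23 it was -1.05, -0.88 and -0.89, a mean of -0.94 ± 0.09 (adjusted p = 0.00186). Both differences had the same sign in 3 of 3 libraries and were far larger than their own SDs.

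A call on its own did not set these pairs apart, since limma called 100% of the 28 pairs, 64.3% with a higher and 35.7% with b higher. Without library 1, 16 pairs with a higher and 7 with b higher were called of 27 tested. Their sizes were at different ends of the range. By absolute difference miR-27 ranked 5th and miR-23 ranked 26th of 28, beside a median of 3.22. Their SDs of 0.10 and 0.09 ranked 5th and 4th from the smallest, against a median SD of 0.44 over the 28 pairs. Of the pairs ranked above miR-27 by size, miR-411 and miR-106 rest on a name of at most 0.1 and 0.4 TPM. The SDs of those pairs, 1.10 and 0.60, also enter the median SD. The others ranked above it, miR-30 and miR-92, had no name below 22.7 TPM. The sources used here do not say how reads that match both paralogues were divided, and its part in these ratios was not tested.

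**Figure D2:**
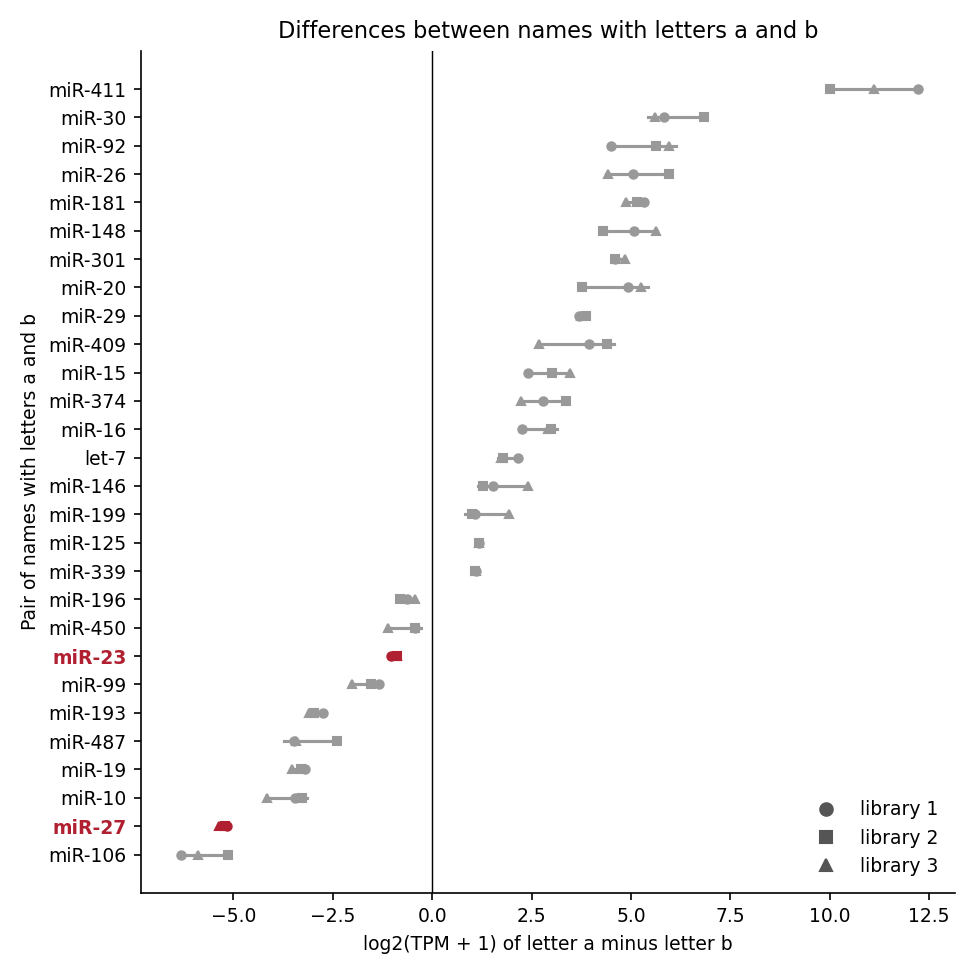
Difference of log2(TPM + 1) between the names with letter a and letter b for the 28 tested pairs, with 1 point per library and a line for ± 1 SD around the mean (n = 3). The miR-27 pair (-5.25) and the miR-23 pair (-0.94), in red, lie on the b side with points close together.

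Within each cluster, miR-23 and miR-27 hairpins come from the same primary transcript, and their mature products stood in different ratios in the 2 clusters. In cluster a, miR-27a-3p and miR-23a were nearly equal, with 1.07, 1.002 and 0.968 reads of miR-27a-3p for each of miR-23a in libraries 1, 2 and 3. In cluster b, miR-27b was 18.6, 20.2 and 21.4 times as abundant as miR-23b-3p. On the log2(TPM + 1) scale the difference was 0.02 ± 0.07 in cluster a and 4.32 ± 0.10 in cluster b (SD, n = 3). The cluster b difference exceeded that of cluster a by 4.12, 4.33 and 4.46, or 4.31 ± 0.17, in 3 of 3 libraries. Flipping the signs of the 3 values gave an exact permutation p of 0.25 (two-sided), the smallest that 3 libraries allow.

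Cluster b without miR-24 thus summed to 31913, 15783 and 22776 TPM, and cluster a with both miR-27a arms to 1634, 814 and 1092 TPM. Nearly all of that gap lay in miR-27b. The third product of the clusters, miR-24-3p, was at 0.987, 1.32 and 1.02 times miR-23b-3p and at 2.04, 2.43 and 1.90 times miR-23a. The names differ in sequence, and the part of adaptor ligation and amplification in the ratios between them was not tested.

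**Figure D3:**
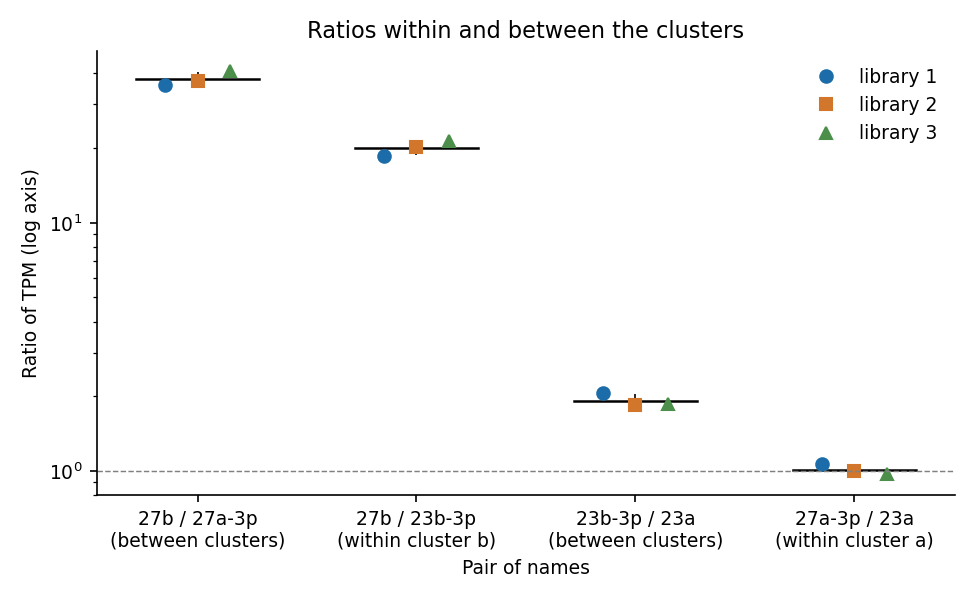
Ratio of TPM on a log axis for 4 pairs of names, with 1 point per library, a horizontal bar at the mean and a vertical bar for ± 1 SD (n = 3), and a dashed line at equal levels. miR-27b is 18.6 to 21.4 times miR-23b-3p within cluster b, whereas miR-27a-3p is 0.968 to 1.07 times miR-23a within cluster a.

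Of the hairpins in the 2 clusters, miR-27a was the one with both arms listed by name. Its 3p arm, the arm that carries the known miR-27 seed, was the abundant one. The 5p arm, the passenger strand, had 7.6, 6.8 and 10.9 TPM in libraries 1, 2 and 3, or about 52, 46 and 60 reads, a mean of 8.43 ± 2.17 TPM (SD, n = 3). The difference of log2(TPM + 1), 5p minus 3p, was -6.61, -5.70 and -5.48, and limma over 20 hairpins with both arms called it (adjusted p = 6.22e-22). That p leans on a spread pooled over hairpins, and without library 3 it was 0.000284. The call has a high background, since 85% of the 20 hairpins were called, 55% towards 5p and 30% towards 3p. By size miR-27a ranked 7th of 20.

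On the deposited TPM the 3p arm of miR-27a was highest in library 1 and the 5p arm in library 3. After the size factors described below both were highest in library 2, with 606, 664 and 460 normalised TPM for 3p and 5.48, 11.2 and 9.42 for 5p in libraries 1, 2 and 3. The 5p arm made up 0.896%, 1.66% and 2.01% of the reads of both arms in libraries 1, 2 and 3, a mean of 1.52% ± 0.569. Wilson 95% intervals of the 5p level ran from 5.78 to 9.93 TPM in library 1 and from 5.09 to 9.06 TPM in library 2. In library 3 the interval ran from 8.50 to 14.1 TPM. These intervals overlapped, but the level in library 3, 10.9 TPM, lay above the upper limits of libraries 1 and 2. Such overlap does not show that the libraries agree within counting error, and their difference was not tested.

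How the members moved from library to library was described last. All 5 members with a mean of at least 10 TPM were highest in library 1, next in library 3 and lowest in library 2. The same order was seen in 65.7% of the 166 tested names, and library 2 was the lowest for 91.6% of them. That library also had the largest share of miR-10b, the most abundant name, with 26.5%, 48.8% and 40.4% of TPM in libraries 1, 2 and 3. With miR-10b left out of the total, the summed members held 4.78%, 3.44% and 4.18%, still lowest in library 2. The part of miR-10b in the levels of the members was not tested.

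After division by median-of-ratios size factors, which were 1.39, 0.609 and 1.16, the same 5 members were highest in library 2 and lowest in library 3. miR-27b then stood at 21822, 24712 and 18806 normalised TPM, and its SD of log2 values went from 0.51 to 0.20. Deviations from its own mean were 0.01, 0.19 and -0.20 on the log2 scale in libraries 1, 2 and 3. Those of miR-23a (0.01, 0.24 and -0.24), miR-27a-3p (0.09, 0.22 and -0.31) and miR-23b-3p (0.12, 0.18 and -0.30) were alike. The order of library 2 before 1 before 3 was seen in 19.9% of the tested names. With size factors from names of at least 100 TPM, library 3 stayed the lowest for all 5, but miR-23b-3p was then highest in library 1 (0.12, against 0.10 in library 2).

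miR-24-3p varied differently from its cluster mates, in a direction that turned with the scaling. On the deposited TPM its SD of log2(TPM + 1) was the smallest of the 5 abundant members, 0.39 against 0.48 to 0.57. After size factors it was the largest. Its deviations were -0.04, 0.44 and -0.40 in libraries 1, 2 and 3, and its SD was 0.42, against 0.20 to 0.28 for the other 4. Over the 166 tested names the median SD was 0.66 before and 0.29 after size factors. In library 2, miR-24-3p lay above miR-23b-3p by 0.40 on the log2 scale, while in libraries 1 and 3 they differed by -0.02 and 0.03.

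Cell type markers moved too. After size factors the median deviation of the 4 white blood cell miRNAs with at least 10 TPM was 0.87, -0.34 and -0.58 in libraries 1, 2 and 3. Below that level, miR-223 had 0.23, 0.52 and -0.74. The red blood cell miRNAs went different ways. miR-486, the most abundant of them, had -0.02, 0.12 and -0.10 and was highest in library 2. In contrast, miR-451 had 0.29, -0.72 and 0.43, and miR-144 had 0.47, -0.56 and 0.09. The 2 endothelial miR-126 arms had -0.17, 0.18 and -0.01, as the median of the pair. Of the vessel wall miRNAs, miR-143, which held nearly all of that list's TPM, had -0.17, 0.29 and -0.12 and was highest in library 2, as the abundant members were, whereas miR-145 had -0.32, -0.18 and 0.49. The stromal miRNAs went different ways, with 0.26, 0.10 and -0.36 for miR-199b, -0.01, -0.23 and 0.23 for miR-199a-3p and -0.27, 0.18 and 0.09 for miR-214. Those of miR-199a-5p were 0.02, 0.01 and -0.03. The part of these cells in the levels of the members was not tested.

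**Figure D4:**
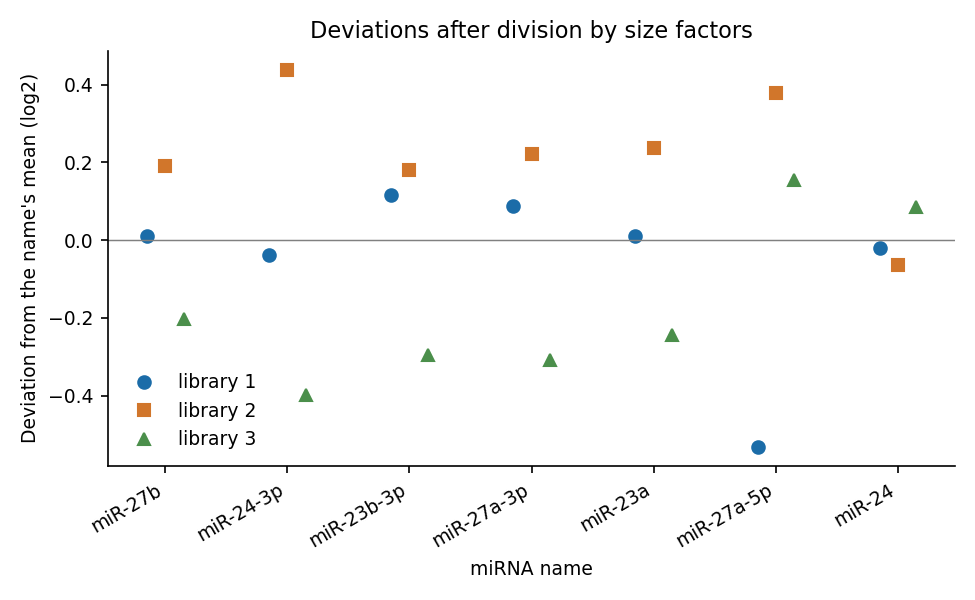
Deviation of each member from its own mean on the log2 scale after division by size factors, with 1 point per library. The 5 abundant members lie highest in library 2 and lowest in library 3, miR-24-3p has the widest range of these (-0.40 to 0.44), and miR-27a-5p (-0.53, 0.38 and 0.15) and miR-24 show other orders.

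The profiles nearest to each member were taken as those with the smallest largest difference of size-factor deviations over the 3 libraries, among 165 other tested names. To miR-27b these were let-7a-5p (0.03), miR-181a (0.03) and miR-23a (0.04). To miR-23b-3p the nearest was miR-27a-3p (0.04), of the other cluster, followed by miR-125b and miR-125a (both 0.08). miR-27a-3p had miR-125b, miR-125a and miR-23b-3p nearest (0.03 to 0.04), and miR-23a had miR-16a (0.01), miR-27b and let-7a-5p. miR-24-3p was nearest to miR-191 (0.02), miR-151-5p (0.03) and miR-342 (0.11), and its closest member, miR-23a, came 11th at 0.20. Of the cluster mates, miR-23b-3p ranked 7th for miR-27b and miR-27b ranked 5th for miR-23b-3p, while miR-27a-3p ranked 7th for miR-23a and miR-23a ranked 4th for miR-27a-3p. With 3 libraries such a profile holds little information, and many names share it.

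miR-27 was set beside other miRNAs linked to the same targets. miR-130a, which is known to repress PPARG in human preadipocytes, had 268, 109 and 181 TPM, and miR-27b was 113, 138 and 121 times as abundant. miR-301a and miR-454, of the miR-130 seed family, had means of 114 ± 55.3 and 9.17 ± 5.39 TPM (SD, n = 3). miR-27a-3p also lay above miR-130a in every library. The sixth name of that list, miR-130b, was not analysed here. Among miRNAs known to act on PRDM16 in mouse, the muscle miRNAs miR-133a (15.4, 1.3 and 10.4 TPM) and miR-133b (2.8, 0.1 and 2.7 TPM) were far below both miR-27 names. miR-27b held nearly all of the summed TPM of both lists, which had totals of 23263 ± 8000 and 22965 ± 7873 TPM. Levels of PPARG, PRDM16 or any other messenger RNA were not analysed here.

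**Figure D5:**
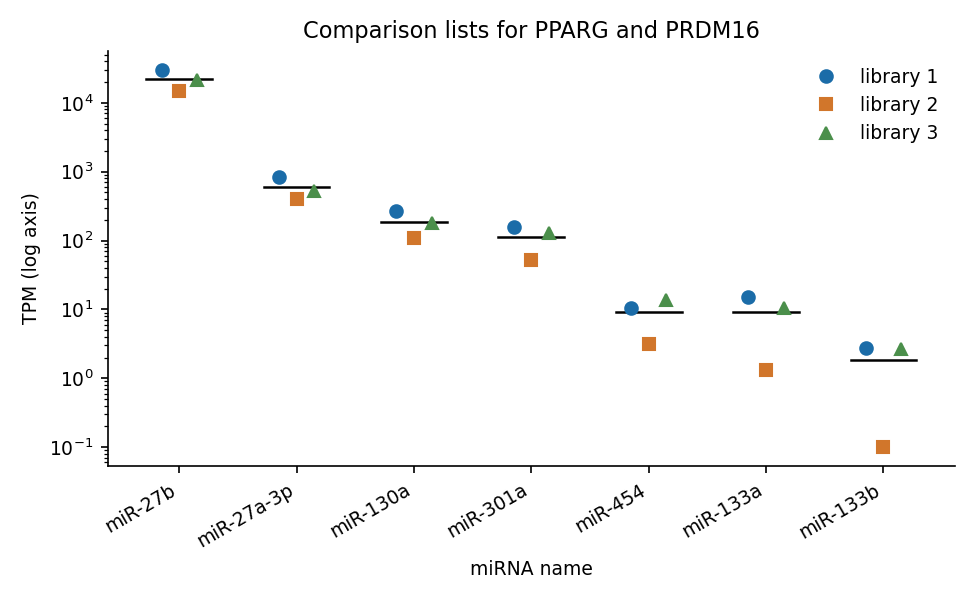
TPM on a log axis of the names compared for PPARG and PRDM16, with 1 point per library and a bar at the mean (n = 3). miR-27b lies at 15039 to 30289 TPM, ahead of miR-27a-3p (404 to 841), miR-130a (109 to 268) and the miR-133 names (at most 15.4).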

How the data were processed

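Small RNA of 3 adipose libraries was sequenced on an Illumina instrument after TRIzol extraction, adaptor ligation, amplification and gel selection, per the labels' protocols. The submitters' processing notes name Bowtie and the bovine build UMD3.1, without a version of Bowtie or the role of either. The values the authors deposited are TPM per the file headers, with 1 decimal and 1 column per library. The sources used here do not say how reads were counted, which miRNA annotation served or how reads matching several names were treated.

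The worth of 1 read, 0.146, 0.148 and 0.182 TPM, was fitted to values up to 30 TPM, of which 99.5%, 99.2% and 98.9% lay on whole multiples within rounding (68.7%, 67.7% and 54.8% if placed at random). Read numbers are therefore estimates and no count model was used. Wilson intervals (95%) cover counting error only, since PCR reads without molecular identifiers are not independent molecules.

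Tests used log2(TPM + 1), a scale that understates the change of low names. Differences within libraries between arms (20 hairpins) or between letters a and b (28 pairs, the more abundant arm of each) were fitted over all pairs whose higher name averaged 10 TPM or more, with limma 3.58.1 in R 4.3.3 and Benjamini-Hochberg adjustment at 0.05. On simulated pairs with a log2 difference of 2, 100% were recovered in both tables, and 2.8% (arms) and 2.57% (letters) of unchanged pairs were called. All simulated pairs of a table had the same spread, the median SD of its real pairs. The real SDs ran from 0.14 to 1.25 (arms) and from 0.0046 to 1.10 (letters), so these rates may not hold for the real pairs. A difference as small as that of miR-23 (-0.94) was not simulated. Size factors were medians of ratios over the 166 tested names. Differences between members of a cluster are descriptions. Named beyond the members were the 3 nearest profiles of each abundant member, the PPARG and PRDM16 lists and cell type markers. Members and lists were chosen with earlier results of these data known. Alternatives were pseudocounts, minimum means, other scalings and leaving out each library.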

Additional observations from a re-analysis of the deposited data

How the results depend on the processing

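Across 160 recomputed values, 121 were labelled the same and 39 moved. Differences fitted in limma were labelled by direction and call, and counts by size. Means, SDs and differences within clusters were labelled the same if they shifted by less than an SD, whatever their direction. Leaving out 1 of 3 libraries cannot shift a mean over the libraries by its SD. For means and differences within clusters, those labels were therefore fixed in advance. Most of these values were counts, means or SDs, which hold no call that could reverse. A count of calls could fall somewhat and still be labelled the same. The miR-27, miR-23 and miR-27a arm differences kept direction and call under every alternative run, with adjusted p in limma of at most 0.00596, 0.0186 and 0.000284. Without a library in turn the miR-27 difference ran from -5.28 to -5.19 and the miR-23 difference from -0.97 to -0.89. With a minimum mean of 100 TPM, 6 pairs with b higher were called in place of 10, where 22 pairs in place of 28 were tested. The counts also changed with nearly as many pairs tested. Without library 1, 7 pairs with b higher and 16 with a higher were called of 27. Without library 2, 8 with b higher were called of 30, but 20 with a higher in place of 18. Without library 3 the counts stayed at 10 and 18 of 28. The summed share of the members was 4.13% once miR-10b was left out of the total, in place of 2.59%, and ran from 2.12% to 3.003% with a library left out. The median SD of the 5 abundant members, 0.51, was 0.26 with size factors and 0.19 with size factors from names of at least 100 TPM. It ran from 0.31 (without library 1) to 0.71 (without library 3). The alternatives for differences within clusters were chosen after seeing the data, and the difference between clusters, 4.31, then ran from 4.23 to 4.40. The difference within cluster a, 0.02, had no call and ran from -0.02 (without library 1) to 0.05. Depth limits miR-24 and miR-27a-5p, with 11 to 60 reads per library. No pairing of samples between groups arises, since the series holds 1 group, and the differences above are paired within libraries.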
